A study of Homo sapiens with 6 samples.

Results

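The RNA-binding protein CELF1 (also named CUGBP1) was immunoprecipitated from lysates of melanoma cells, and the RNA recovered with it was read in bins of 20 bp on each strand. A bin was common when it held more than 30 reads in all 3 immunoprecipitated (IP) samples. Of 30766 common bins on chromosomes 1 to 22 and X, 983 had their centre in no annotated gene on the transcript strand, a share of 3.2% (Wilson 95% interval 3 to 3.4%). These 983 bins outside annotated genes formed 273 loci, a locus being a set of bins at most 1000 bp apart behind the same gene. They were grouped by the distance to the end of the nearest upstream gene on the same strand, in order to look for transcripts that run past their annotated 3′ end. The IP reads that chose the bins are given below as a description, without a test.

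CELF1 binds GU-rich elements (GREs), most of them in 3′ UTRs, and is known for promoting the shortening of the poly(A) tail and the decay of the bound mRNA, besides roles in splicing. The 3′ end of an mRNA is set by cleavage shortly after a poly(A) signal, usually AAUAAA or AUUAAA. Many genes have several such signals, so that a gene can give rise to 3′ UTRs of different lengths, and an annotation may lack the longest of them.

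Replicate 1 of SK-Mel-103 and, for UACC-62, replicates 1 and 3 were analysed beside input RNA from the same lysates. SK-Mel-103 and UACC-62 are established human melanoma lines, the former with mutant NRAS and the latter with mutant BRAF. Both were grown in serum-containing medium without further treatment of the cultures. For the immunoprecipitation the cells were fixed with formaldehyde, and the lysates with the crosslinked complexes were sonicated. SK-Mel-103 had 1 sample, so that the lines cannot be compared beyond giving their values, and the labels do not say whether the UACC-62 replicates came from separate cultures, so that errors measure only the spread between these samples. The lysates are bulk material, in which fewer cells with a transcript and less of it per cell cannot be told apart.

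Values given as a triplet follow the order SK-Mel-103, first UACC-62 sample (replicate 1), second UACC-62 sample (replicate 3). The lists held 10958459, 11333805 and 14436573 IP reads and 8453517, 10161917 and 8900292 input reads. Only bins that passed the authors’ threshold are listed, and input reads elsewhere are unknown. Melanocyte markers had input reads in listed bins for 3, 6 and 6 of 9 genes, with SOX10, MITF and MLANA in all 3 samples and none for PMEL, TYRP1 and GPR143. SK-Mel-103 had few of these reads (900, 15728 and 11980 over the markers, of which 18, 6036 and 5000 for MITF). It had none for TYR, DCT and S100B. Of the markers of other skin and blood cells, KRT10 (1 of 4 keratinocyte genes) and LUM (1 of 4 fibroblast genes) had input reads in all 3 samples, PTPRC (of 4 leukocyte genes) had 3 in 1 sample, and both endothelial genes had none.

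Sequences that recur in the results are given here 5′ to 3′ on the transcript strand of GRCh37, with T for the U of the RNA. The first pair shows, in capitals, the poly(A) signal nearest to the place where reads past HSD17B12 and ZC3HAV1L stopped.
HSD17B12, chr11:43888811-43888840, plus strand: ggtcttctttaaATTAAAattctcagctta
ZC3HAV1L, chr7:138706248-138706277, minus strand: tatacattcataAATAAAattcatttatat

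The next set shows stretches of member bins closest to the GRE consensus TGTTTGTTTGT or TGTGTGTGTGT, with the matching 11 bases in capitals. The stretch past PDZD8 had no mismatch to the consensus, those past ZNF460 and the lncRNA ENSG00000288899 had 1, and those past PDCD10, HSD17B12 and HUS1 had 2.
PDZD8, chr10:119028527-119028556, minus strand: atgtgtgtaTGTGTGTGTGTatgcgtgtgt
ZNF460, chr19:57806105-57806134, plus strand: taatcccttTGTTTATTTGTgcttttgtta
ENSG00000288899, chr19:57812271-57812300, plus strand: cttgtatcctattgagggtTTTTTGTTTGT
PDCD10, chr3:167395178-167395207, minus strand: ttaaaataaTTTTTGTGTGTactacgccat
HSD17B12, chr11:43883011-43883040, plus strand: ttattgattggcTGTTTGGTTTTattattg
HUS1, chr7:47996275-47996304, minus strand: ctggcacttTGTCTGTTTGGtgacatcatg

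The last set shows the 20 bases covered by every read of single bins that stood alone and had almost no input. No base is marked.
FSD1L, chr9:108319781-108319800, plus strand: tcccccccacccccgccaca
RPS17P7, chr2:122287761-122287780, plus strand: aggccgagggaaggctgggg
GART, chr21:34864061-34864080, minus strand: cccacaatcccaatcggccg
LENG8, chr19:54976541-54976560, plus strand: gggggcgcccggggctcggg

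By distance, 156 of the 983 bins (15.9%) lay within 1 kb of an upstream gene end, 320 (32.6%) at 1 to 5 kb, 115 (11.7%) at 5 to 10 kb and 392 (39.9%) beyond 10 kb. The bins were concentrated in few places. The 16 loci of 10 or more bins held 556 of them, whereas 193 of the 273 loci were a single bin. Over loci the order changed, with 57 within 1 kb, 27 at 1 to 5 kb, 25 at 5 to 10 kb and 164 beyond 10 kb. A pair of neighbouring stretches on chromosome 19, past ZNF460 and past the lncRNA ENSG00000288899 that follows it, accounted for 288 bins (29.3%), among them 210 of the 320 bins at 1 to 5 kb.

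How many places of the genome a bin’s 40-nt sequence matched at up to 2 mismatches separated the distance classes. A single place was found for 542 members (55.1%, against 71.7% of the common bins inside genes). Between 2 and 20 places were found for 60 (6.1%, against 26.3%), and over 20 for 199 (20.2%, against 1.86%). Another 182 members (18.5%, against 0.215%) shared at least 20 nt with the ribosomal RNA repeat. Single-place bins made up 83.8% of the members at 1 to 5 kb but 23.5% of those beyond 10 kb, where 153 bins had over 20 places and 139 matched the ribosomal repeat. The plot of bins and loci by distance shows this change.

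**Figure D1:**
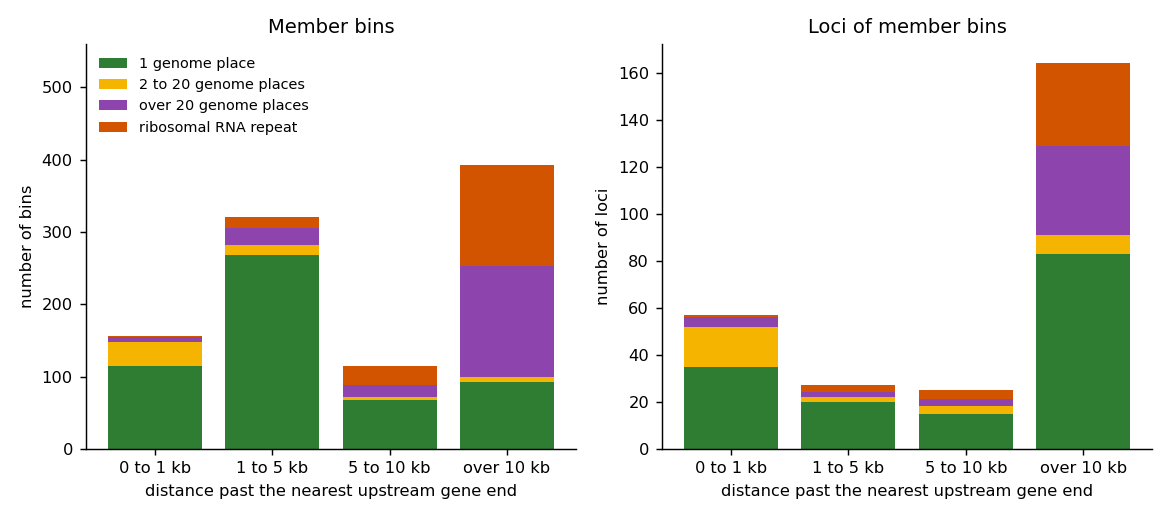
Number of member bins (left) and of loci (right) by distance in kb past the nearest upstream gene end on the same strand, coloured by how many genome places the 40-nt sequence matched (loci by the kind of most of their bins). Loci tied between kinds were given the kind named first in the key. Single-place bins dominate at 1 to 5 kb (268 of 320), and repeated sequence beyond 10 kb.

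A gene on the opposite strand overlapped 351 members (35.7%), and it was a protein-coding gene for 213 (21.7%). The share was 22.4% within 1 kb, 11.6% at 1 to 5 kb, 26.1% at 5 to 10 kb and 63.5% beyond 10 kb. These shares include bins of repeated and ribosomal sequence. The share over all common bins is not given here, so that they cannot be read as a trait of the members.

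The enrichment of a bin was taken as the log2 of its IP reads over its input reads, after adding 1 read to each and dividing by the list total. Of the 983 members, 826 (84%) were above 0 in all 3 samples, against 66.8% of all common bins, and 596 (60.6%) were above 2 in all 3, against 21.9% of all common bins. Among the 25924 common bins in annotated 3′ UTRs these shares were 70.4% and 21.6%. A member held a median of 92, 121 and 124 IP reads, with 8, 10 and 9 input reads. The median log2 IP over input of the members was 3.13, 3.56 and 3.32, and that of the 3′ UTR bins 1.27, 1.28 and 1.37. The members exceeded the 3′ UTR bins by 2.03 ± 0.22 on the log2 scale (SD, n = 3), in each of the 3 samples. The bins were chosen by their IP reads, which enter this ratio, and the difference was therefore not tested. With reads summed over bins in place of the median it was 1.13. Input reads enter the authors’ threshold as well as this ratio, and the bins are described conditional on having passed it.

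With both sides limited to bins of a single place, the difference was 1.98, 2.61 and 2.22. It was 1.91, 2.01 and 1.56 for the 224 single-place members outside the long stretches beside ZNF460, INCENP and CDCA2. Over members of every kind of sequence, the median log2 was lowest beyond 10 kb (2.33, 2.39 and 2.22). It was 3.95, 4.23 and 3.80 at 5 to 10 kb and 3.22, 4.07 and 3.84 at 1 to 5 kb, so that the order of these 2 classes differed between samples. In the most distant class, the SK-Mel-103 values were spread widest, from 0.22 at the 25th to 5.20 at the 75th percentile. Single-place members outside the stretches past ZNF460, ENSG00000288899, INCENP and ENSG00000289357 had another order of classes. Their median log2 was lowest within 1 kb (2.64, 2.28 and 2.21, 33 bins). Beyond 10 kb it was 3.85, 3.21 and 2.84 (92 bins), so that the order depended on the bins included. At the threshold itself, 37 members had a lowest read count of 31 and were just inside, while 38 bins outside genes had a lowest count of 30 and were left out.

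**Figure D2:**
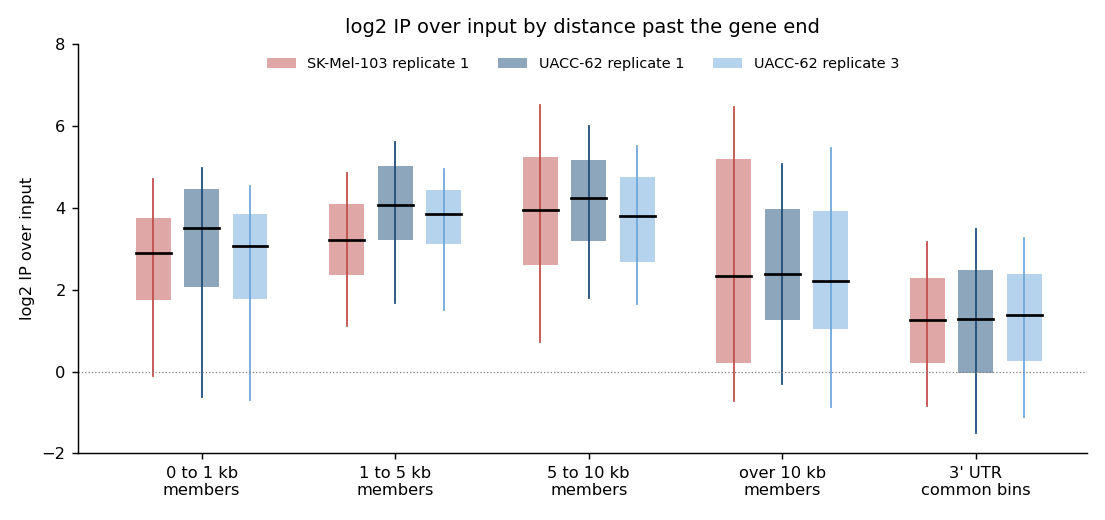
Log2 IP over input (vertical axis) of member bins in 4 distance classes and of the 25924 common bins in 3′ UTRs, for each of the 3 samples. Boxes span the 25th to 75th percentile, black lines are medians and thin lines reach from the 10th to the 90th percentile; all 12 medians of the members, from 2.22 to 4.23, lie above those of the 3′ UTR bins, 1.27 to 1.37.

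In the plot of IP against input reads, the members with over 20 places stood to the right of the single-place members, although the clouds overlap. Single-place members had a median of 5, 6 and 6 input reads and members with over 20 places 58, 44 and 18, at similar IP reads (78, 116 and 127 against 86, 121 and 83). The ribosomal members, at a median of 6, 11 and 19.5 input reads, overlapped the single-place ones. Of the members with over 20 places, 5.53% were above a log2 of 2 in all 3 samples, compared with 80.4% of the single-place ones.

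**Figure D3:**
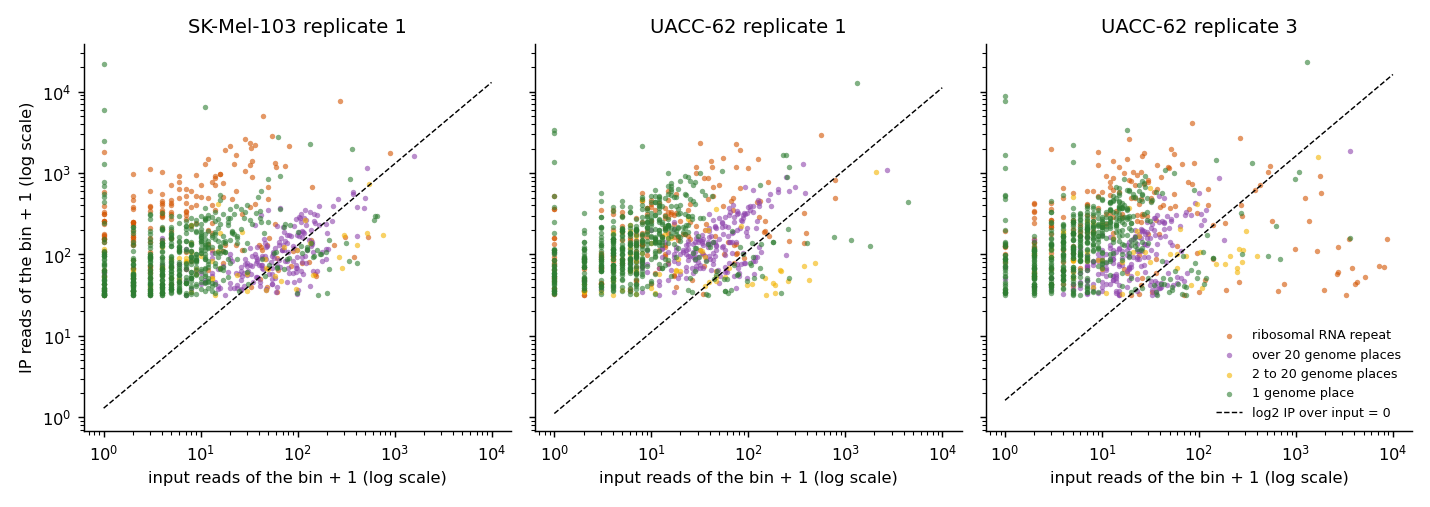
IP reads against input reads of each of the 983 member bins in the 3 samples, both with 1 read added and on log scales, coloured by kind of sequence. Points above the dashed line have log2 IP over input above 0; in UACC-62 replicate 3, several bins of the ribosomal RNA repeat lie far to the right, with over 1000 input reads.

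Of the 57 loci within 1 kb, 30 were single bins less than 10 bp past the annotated end, and all 30 were on the minus strand. On the plus strand, 1 member lay that close, as the first bin of the stretch past INCENP. Of these 30 genes, 29 were protein-coding, among them TOP2A, the topoisomerase that untangles DNA in replication and mitosis and the only gene of the study’s replication network with a member bin behind it. The bin 5 bp past TOP2A (chr17:38544761-38544780) held 100, 86 and 85 IP reads against 10, 13 and 15 input reads, giving log2 values of 2.82, 2.48 and 1.73. The bins behind the genes of sorting nexin SNX4 (3.37, 4.28 and 2.86) and of the protein modifier SUMO3 (3.29, 2.81 and 3.33) were likewise above input in each sample.

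Other bins of this kind lay below input. Behind EEF2, the translation elongation factor, the log2 was -1.57, -2.36 and -2.16, and behind RPL12, a protein of the large ribosomal subunit, -1.58, -2.54 and -2.19. Altogether 20 of the 30 edge bins were above input in all 3 samples (66.8% of all common bins were) and 6 below in all 3.

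The position of these bins followed the strand of the gene over the whole data set. At the ends of 378 protein-coding genes on the plus strand, 108 common bins began 60 bp before the annotated end and 1 began 40 bp before it. At 382 genes on the minus strand, 146 began 40 bp before the end, 115 began 20 bp before it, and none at the end or beyond within the 200 bp examined. Counting a 40-nt read at its leftmost genomic base gives such an offset between strands. With each bin moved to the centre of the bases it can have read, an alternative chosen after seeing the data, 956 bins lay outside genes, of which 952 were members, and no minus-strand bin remained less than 10 bp past an end. The 30 edge bins are therefore not counted as extensions below.

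**Figure D4:**
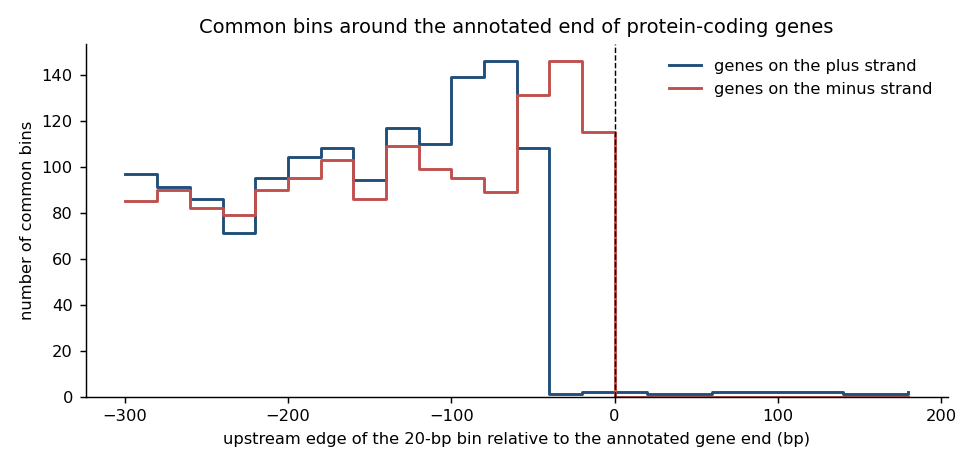
Number of common bins (vertical axis) by the distance in bp of their upstream edge from the annotated end of 378 plus-strand and 382 minus-strand protein-coding genes. From 40 bp before the end onward, plus-strand genes have 1 or 2 bins per step, whereas minus-strand genes keep over 100 up to the end and have none past it, which places the centre of some of the latter just outside the gene.

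Past ZNF460, the gene of a zinc finger protein on chromosome 19, 130 bins ran from 13 to 3393 bp, with 20458, 42607 and 38410 IP reads against 1143, 1232 and 1237 input reads. Their summed log2 (3.79, 4.95 and 4.26) was above that of the 77 common bins in the annotated 3′ UTR of the gene (2.41, 3.06 and 2.99). All 288 members past ZNF460 and ENSG00000288899 were above input in each sample, as were 92.6% of all single-place members and 66.8% of all common bins. Past INCENP, a subunit of the chromosomal passenger complex, 23 bins from 9 to 509 bp had a summed log2 of 3.58, 4.04 and 3.67, up to an lncRNA that starts 560 bp past the gene. A further stretch of 21 bins, from 99 to 1519 bp past the lncRNA ENSG00000289357 on chromosome 8, had 2.77, 4.31 and 3.63.

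For the loci 1 to 10 kb past a gene, reads between the gene and the locus were examined, as a longer transcript would leave some. A locus was called bridged when no stretch of over 1000 bp between gene end and locus was free of listed bins in any sample. Among the 35 loci mostly of single-place bins, with ties between kinds counted as single-place, 15 were bridged, with 78 of the 106 bins, and 20 were not. The bridged loci followed 8 genes, namely HSD17B12, MAPRE1, NCAPG2, OSBPL10, PBDC1, PDCD10, ZC3HAV1L and the pseudogene TMED10P1. The locus past TMED10P1 was such a tie, with 1 single-place bin of 2, and 11.6%, 15.9% and 18.9% of the 20-bp steps before it were listed. Between the gene end and a bridged locus a median of 44%, 64.9% and 66% of the 20-bp steps were listed, and the median GC content of the locus was 33.3% (25 to 41.7%). Between the gene end and a locus that was not bridged the median was 0% of the steps in each sample, and the GC content was 72.5% (35.8 to 95%), with a single bin in 17 of 20 loci. All 78 bridged bins were above input in each sample (92.6% of all single-place members were), at a median log2 of 3.21, 4.29 and 3.39. Of the 28 bins that were not bridged, 21 were, at a median of 4.73, 4.0 and 3.70, so that the height of the log2 did not separate the 2 sets. None of 5 loci with over 20 places, 1 of 5 with 2 to 20 places and 1 of 7 of the ribosomal repeat were bridged. For loci just past 1 kb the call says little. The bridged ribosomal locus, 1007 bp past MIR3687, had 49 steps of 20 bp before it, too few to fail. Loci 1096 bp past PPP4R2P1 and 1120 bp past ZC3HAV1L had 54 and 55 steps, so that few listed bins sufficed.

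Ends of runs are given below as the middle of the bases read in the last bin, which lies about 20 bp from the centre of the bin, from which distances of members are counted. Poly(A) signals are placed by their first base, counted from 0 at the first base beyond the reach of the reads of that bin, with negative positions before it. The longest of these runs followed PDCD10, which encodes a small scaffold protein linked to cerebral cavernous malformations, on the minus strand of chromosome 3. Its 31 member bins lay 3634 to 8674 bp past the annotated end and held 1830, 3461 and 1883 IP reads against 94, 71 and 51 input reads. Their log2 was 3.89, 5.43 and 4.48. The 3 common bins of the annotated 3′ UTR of the gene were below input in every sample, at -0.60, -0.11 and -0.70. The 2 regions differed by 4.49, 5.54 and 5.19. This gap was not tested, since 1 of the 2 loci past PDCD10 was named partly for its high log2. The highest bin, 5774 bp past the end (chr3:167395301-167395320), held 125, 325 and 142 IP reads with 3, 1 and 3 input reads. All listed bins from 0 to 10 kb past the end had a lower log2 than the members, at 2.81, 4.13 and 3.71. Listed bins without a gap of over 1000 bp continued to 18715, 17395 and 17755 bp, well before the next gene on the strand, WDR49, at 29314 bp. Within 100 nt of the end, SK-Mel-103 had an AATAAA at position 54, beyond the reads, the second UACC-62 sample had one at -31, and the first had no signal.

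HSD17B12, an enzyme of fatty acid elongation encoded on chromosome 11, showed a similar pattern. Past its end, 22 members lay between 1483 and 9063 bp, with 1035, 1385 and 1335 IP reads against 109, 80 and 89 input reads. All 22 lay over a gene on the other strand, unlike the members past PDCD10. The log2 was 2.86, 3.94 and 3.19 for the HSD17B12 members, and -0.60, -1.26 and -1.01 for the 2 common bins of the annotated 3′ UTR. For all listed bins from 0 to 10 kb past the end it was 2.21, 2.93 and 2.91. The run of listed bins stopped 10643 bp past the end in all 3 samples. An ATTAAA began at position -17, in the sequence printed above.

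OSBPL10, a member of the family of oxysterol-binding lipid transfer proteins, had 10 members from 272 to 10272 bp past its end. They held 360, 1059 and 664 IP reads against 14, 40 and 11 input reads, at a log2 of 4.21, 4.53 and 5.09. Here the single common bin of the annotated 3′ UTR was also above input, at 3.67, 3.52 and 3.91. The run reached 12373, 11593 and 12393 bp, with a poly(A) signal within 100 nt of the end in UACC-62 replicate 1 and in neither other sample.

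PBDC1, on the X chromosome, had 9 members from 281 to 14601 bp past its end and no common bin in its annotated 3′ UTR. Their IP reads numbered 354, 1534 and 1172 and their input reads 18, 61 and 55, for a log2 of 3.85, 4.47 and 3.69. SK-Mel-103 had the fewest IP reads, whereas its log2 lay between those of the UACC-62 replicates. The run ended at 12761, 16241 and 17261 bp, in SK-Mel-103 before the last member. An AATAAA began at position -47 from the SK-Mel-103 end and at -2 from that of the first UACC-62 sample, and the second had no signal within 100 nt.

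Behind ZC3HAV1L, a paralogue of the zinc finger antiviral protein, 5 members from 1120 to 4160 bp had a log2 of 2.80, 2.44 and 2.03. The run ended at 4161, 4161 and 4181 bp with an AATAAA at position -5, -5 and -25, again in the sequence printed above. The member nearest to that end held 37, 61 and 92 IP reads and 9, 27 and 18 input reads. MAPRE1, encoding the microtubule plus-end protein EB1, had 3 members between 2239 and 5899 bp at 2.31, 2.46 and 1.92, above the 58 common bins of its annotated 3′ UTR (0.70, 0.60 and 0.81). Of these members, 2 lay over a gene on the other strand. Its run went on to 6179 bp in all 3 samples, where an lncRNA on the same strand starts at 6215 bp, and with that gene counted to 8319 bp. No poly(A) signal lay within 100 nt of 6179 bp. NCAPG2, a subunit of condensin II, had a single member 2469 bp past its end with 46, 42 and 35 IP reads and 1, 3 and 1 input reads. Listed bins past it reached 7130, 7550 and 7610 bp before the next gene on the strand, THAP5P1, at 7719 bp, without a poly(A) signal within 100 nt. With following genes counted they went on to 8590, 11190 and 8350 bp, so that, as for MAPRE1, the positions searched are not the end of the reads. ZC3HAV1L, MAPRE1 and NCAPG2 lie outside the rule for named genes and were chosen after their values were seen.

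**Figure D5:**
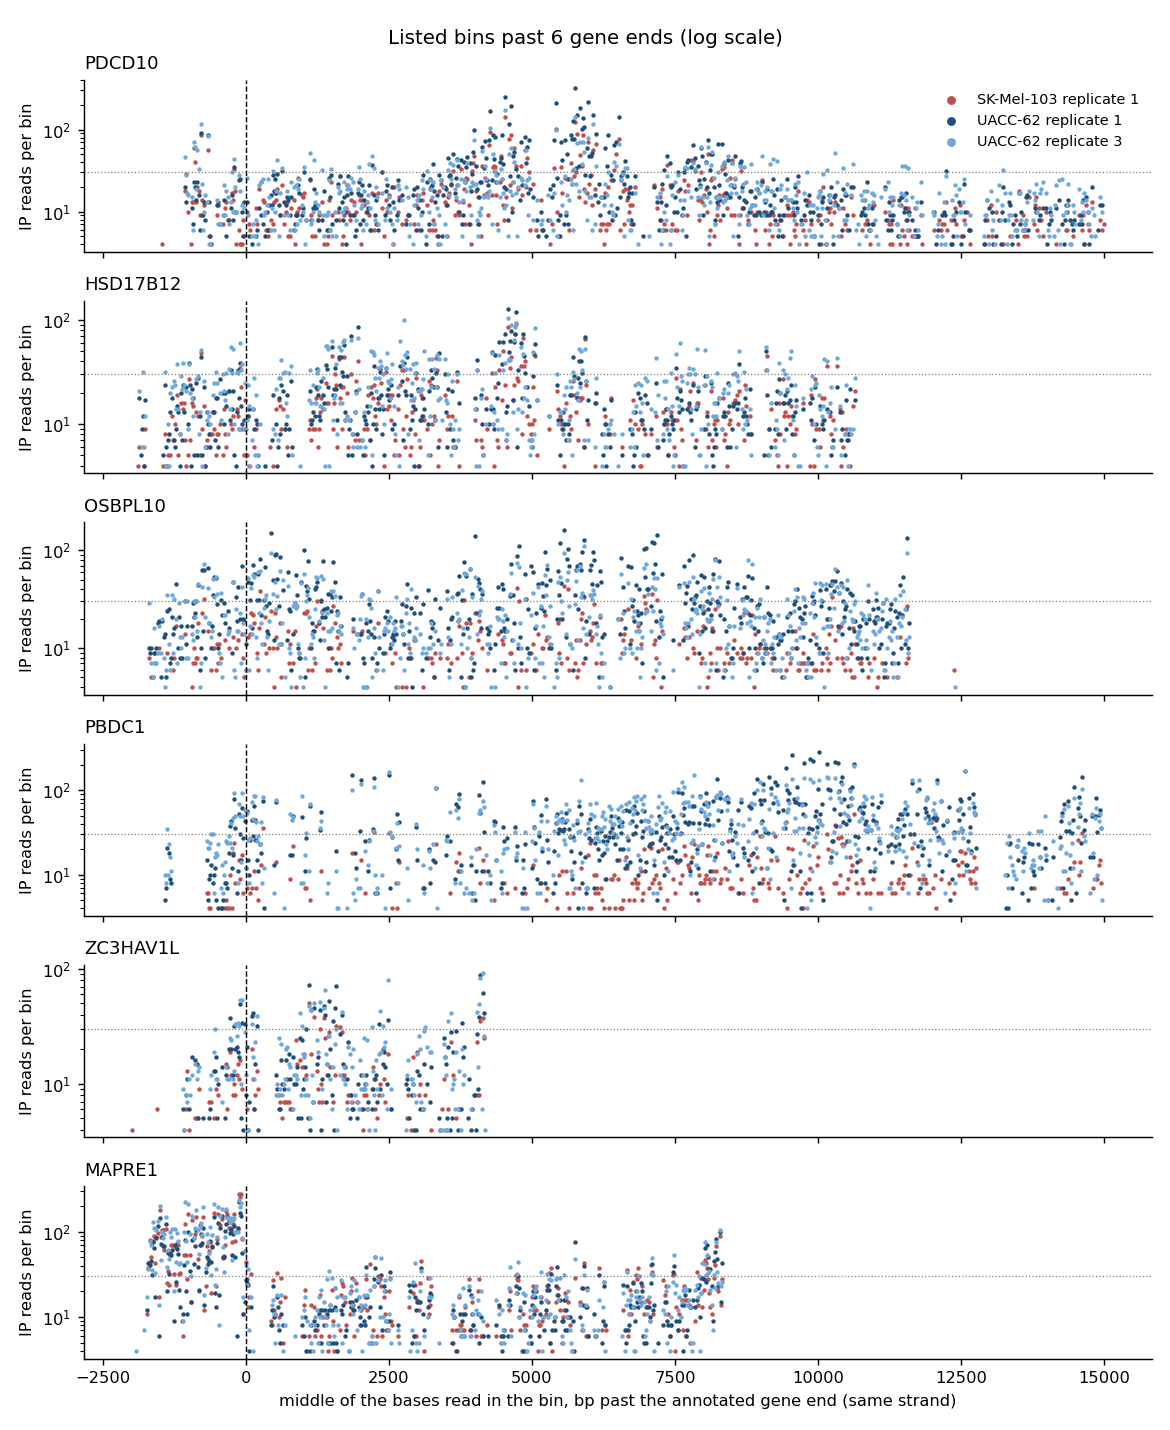
IP reads per listed bin (vertical axis, log scale) against the position in bp past the annotated end of 6 genes (dashed line at 0) in the 3 samples; the dotted line marks 30 reads. Listed bins continue past every one of the 6 ends, up to 10643 bp for HSD17B12 and 4161 to 4181 bp for ZC3HAV1L, and those past 6215 bp of MAPRE1 belong to a following lncRNA.

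Among the loci that were not bridged, PDZD8, which encodes a lipid transfer protein of membrane contact sites, had 5 members from 8073 to 8593 bp past its end, directly before a gene that starts at 8605 bp (ENSG00000277879). All 5 lay over a gene on the other strand. They held 222, 350 and 414 IP reads against 10, 3 and 1 input reads. The log2 was 3.97, 6.30 and 7.0, with the lines apart by over 2, and the 20 common bins of the annotated 3′ UTR had 2.40, 2.71 and 2.73. The bin with the perfect GRE held 35, 33 and 37 IP reads and no input read in any sample. With no input read, these bins’ ratios are set by the read added to the input, and are no measure of size.

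Behind HUS1, a component of the checkpoint clamp that senses DNA damage, 3 members from 4793 to 6613 bp had a log2 of 3.28, 3.52 and 3.85. Listed bins past HUS1 broke off at 2434, 2554 and 3214 bp. AMPD3, an AMP deaminase of nucleotide metabolism, had 2 members at 304 and 764 bp (3.80, 2.13 and 3.99), and its run stopped at 2384 bp in all 3 samples without a poly(A) signal within 100 nt. HUS1 and AMPD3 were also named after their values were seen.

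A poly(A) signal lay within 100 nt of the downstream end in 72 of the 273 loci (26.4%, Wilson 95% interval 21.5 to 31.9%). In windows of the same size 2 kb further downstream the share was 21.2% (16.8 to 26.5%), and at the annotated ends of the upstream genes it was 62.4% (84.1% for protein-coding ones). Within 1 kb of a gene 61.4% of the loci had a signal, a class that includes the 30 edge bins, whose windows contain the annotated end itself. It was 14.8% at 1 to 5 kb, 16% at 5 to 10 kb and 17.7% beyond 10 kb, and 26.7% (10.9 to 52%) for the 15 bridged loci against 10% (2.79 to 30.1%) for the 20 others, with intervals that overlap. A bin with more than 30 reads need not be the last bin of a transcript.

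GREs were searched in the 60 nt that the reads of a bin can cover. At up to 2 mismatches, 8.14% of the member bins held one (6.59 to 10%), compared with 7.08% of the 3′ UTR bins (6.77 to 7.4%). The share was 11.6% for members with a single place (63 of 542), 10.3% for the 78 bridged bins, 7.04% for those with over 20 places and 0 of 182 for the ribosomal repeat. Of the 80 member bins with a GRE, 28 lay past ZNF460 and 10 past ENSG00000288899, so that these shares rest largely on 1 region. The 60 nt of neighbouring bins overlap, and 1 GRE can count in several bins, among members and 3′ UTR bins alike. Of all loci 8.79% held a GRE (5.98 to 12.7%), far fewer than the 31.5% of the 2065 loci in 3′ UTRs (29.6 to 33.6%). The 2 sets differ in size, with 193 of 273 and 653 of 2065 loci being a single bin. Of the single-bin loci a GRE was held by 4.66% (2.47 to 8.62%) against 6.74% (5.06 to 8.92%) of single-bin loci in 3′ UTRs. A perfect consensus was present in 3 of 983 members (0.305%) and in 0.66% of the 3′ UTR bins. The median share of G and U was 60% in bridged bins, 56.7% in all members and 53.3% in 3′ UTR bins, while the trinucleotide CUG was found in 69.9% of the members and 69.8% of the 3′ UTR bins. A match is a description of the letters and does not show binding.

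Behind processed pseudogenes, 12 loci with 24 bins lay within 2 kb, and the 40-nt sequences of all 24 also matched annotated transcripts, mostly of the parent genes such as ANXA2, HNRNPA3 and DNAJA1. Their median log2 was close to input, at 0.10, 0.06 and 0.54. A locus past TMED10P1 (2.61, 3.26 and 2.99) and a bin past UBE2E4P (3.14, 3.40 and 2.02) were above 2 in all 3 samples, with sequences that also match TMED10 and UBE2E3.

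The 182 bins that matched the ribosomal RNA repeat lay in 48 loci on 17 chromosomes, with a median GC content of 58.3%. They were compared with an unplaced contig of the build that carries such a repeat, and 136 were within 2 mismatches of it. The protocol depleted ribosomal RNA with a Ribo-Zero Gold kit, whereas the labels call the IP RNA poly(A)+, and which of these applied is not settled here. These bins held 40.9%, 25.7% and 31.6% of the IP reads of all members and 14.7%, 16.9% and 71.8% of their input reads. The median log2 per bin was 5.36, 3.87 and 3.75, whereas the summed log2 was 3.70, 2.69 and -0.54, so that sum and median differ in sign in UACC-62 replicate 3. This turned on few bins with many input reads. A locus of 7 bins behind MIR3687 held 917, 592 and 20296 input reads against 1255, 926 and 400 IP reads, for a log2 of 0.08, 0.49 and -6.36. By contrast, 24 bins on the other strand of the same region of chromosome 21 (chr21:9826901-9827520), behind ENSG00000279501, had 6.15, 4.47 and 4.70. UACC-62 replicate 3 was also the lowest sample at 19 ribosomal bins on chromosome 16 behind ENSG00000286968 (5.10, 4.18 and 0.41) and 14 on chromosome 2 behind ENSG00000225594 (6.20, 5.11 and 2.31). At 16 bins on chromosome 1 behind FEN1P1 the lowest was UACC-62 replicate 1 (5.54, 3.39 and 4.68). The opposite strand was listed in all 3 samples for 75.3% of the ribosomal bins, compared with 9.23% of the single-place members.

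Members with over 20 places matched a median of 10126 places. An alignment that keeps up to 20 places per read does not tell which copies of such a sequence gave the reads. Their median log2 was 0.46, 1.59 and 1.66, with SK-Mel-103 below both UACC-62 samples, and 96.5% of them also matched annotated transcripts. The largest loci were 32 bins on chromosome 7 behind AC079804.1 (0.28, 1.86 and 2.12) and 24 bins on chromosome 4, 25686 to 27286 bp behind RAB28 (0.02, 1.08 and 0.98). At the other loci of this kind named by the rule, behind ENSG00000247765, ENSG00000229505, LINC00654 and ZCCHC18, the log2 ranged from 0.36 to 0.69 in SK-Mel-103 and from 1.46 to 1.95 in UACC-62. A locus of 6 bins behind ACVR2A, the largest of this kind within 1 kb, was below input in each sample (-1.25, -0.30 and -0.62).

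Of the single-bin loci beyond 1 kb, 100 had a single genome place, and they divided by base composition. With a GC content above 65%, 24 of 47 bins (51.1%, 37.2 to 64.7%) lay within 1 kb of the start of a gene on either strand, compared with 5 of 53 (9.43%, 4.1 to 20.3%) at lower GC content. The GC limit was chosen after the values were seen. In 45 of the 47 GC-rich bins over 90% of the IP reads within 100 bp fell in that single bin. The same held for 37 of the 53 bins of lower GC content, and the median was 100% in both sets. In loci of 10 or more bins the median was 12.8%, a gap that follows in part from choosing single-bin loci. The median log2 of the GC-rich bins was 5.09, 4.21 and 3.54, on a median of 1, 2 and 4 input reads, and 8 of them had no input read in any sample.

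The bin 5056 bp behind FSD1L had 2467, 1373 and 1681 IP reads and no input read, and that behind the pseudogene RPS17P7 had 6396, 2126 and 2187 with 10, 7 and 4. With 63.3% GC, the bin 12186 bp behind GART, a gene of purine synthesis, held 244, 3343 and 7714 IP reads and none in the input, so that IP reads differed widely between samples. It lies 47 bp from the start of a gene on the same strand. The bin behind LENG8, with 95% GC, held 128, 51 and 87 IP reads and 2, 0 and 0 input reads. The 4 bins shown by sequence were chosen after their values were seen. All reads of such a bin start within the same 20 bp.

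The largest single counts were beside ribosomal sequence. A bin on chromosome X (chrX:125715261-125715280, minus strand) held 22045, 12791 and 23354 IP reads and 0, 1317 and 1288 input reads and lay beside a bin of the ribosomal repeat. A bin on chromosome 17 (chr17:31149541-31149560, plus strand) held 5923, 3122 and 8907 IP reads without any input read, next to further ribosomal bins. The 7 single-place members within 200 bp of a ribosomal bin held 28.9%, 14.7% and 23.1% of the IP reads of all single-place members.

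Of the fixed gene lists, no gene of the RNA-binding regulators of mRNA 3′ ends and decay had a member behind it. The replication-dependent histone genes, whose mRNAs end in a stem-loop instead of a poly(A) tail, were represented by 1 bin 16185 bp past H2BC13, which was below input at 31, 33 and 43 IP reads and 163, 219 and 112 input reads. Of the members, 72 were the 2 strands of 36 positions, of which 38 members were ribosomal, 26 had a single place and 8 had over 20 places. In 44 members the log2 had the opposite sign in SK-Mel-103 and in both UACC-62 samples, a difference that was not tested. The share over all common bins is not given here, so that the count cannot be read as a trait of the members.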

How the data were processed

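The 3 IP lists of the RIP-Seq experiment were analysed, in which bins had been called with the matching input as covariate. The authors depleted ribosomal RNA per the protocol (the labels say poly(A)+), aligned 40-nt single-end reads to GRCh37 as a first-strand library, with up to 2 mismatches and 20 places per read (TopHat2 2.0.4, Bowtie 0.12.7 and SAMtools 0.1.16 in the submitters’ processing notes), and called bins of 20 bp with Piranha. As deposited, the counts are unnormalized IP reads of each passing bin. The p-value deposited by the authors is Piranha’s, below 0.05, and its correction for multiple tests is not recorded in the files. The ratio deposited by the authors is the covariate, and dividing it by its smallest step returned the whole input reads.

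The transcript strand was taken as the reverse of the listed strand, after the values had been seen. Genes came from GENCODE version 44 mapped to GRCh37. Members, gene lists and alternatives were chosen with earlier results of these data known. Named by rule were, per distance class, the 6 loci with the most bins, the 6 loci of 3 or more bins with the highest lowest-of-3 log2, and loci past listed genes, 27 loci in all. The 40 nt around each bin were searched against the genome and the annotated transcripts with up to 2 mismatches. Shares carry Wilson 95% intervals, which cover counting error only, since bins of a locus share transcripts and reads had no molecular identifiers. A sign-flip test of the difference to 3′ UTR bins had been planned and is not reported, since IP reads chose the members, and no test across bins was run. Alternatives covered filters, annotation, strand, bin position, locus gap, normalization, pseudocount, search windows and leaving out each sample. On simulated data the scripts recovered all planted input reads, bin placements, loci and copy numbers. The tools were pysam 0.24.0, numba 0.67.0, pandas 2.3.3, numpy 2.4.6 and scipy 1.17.1 under Python 3.11.15, with matplotlib 3.10.9 for figures.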

Additional observations from a re-analysis of the deposited data

Results flagged for a closer look

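The mitochondrial chromosome was not part of the members. It held 57 common bins, 24 of them outside annotated genes on the transcript strand, and 9 of these 24 (37.5%, against 66.8% of all common bins) had a log2 IP over input above 0 in all 3 samples. They are given because the comparisons above do not use this chromosome, and their share was below that of all common bins. All 9 lay on the minus strand. Together they held 548, 660 and 1103 IP reads against 44, 84 and 32 input reads, for a log2 of 3.23, 2.80 and 4.37, in the order of samples used above. The 9 bins were picked for a log2 above 0, so that a positive sum follows from the choice. The rest of the 24 bins are not in it.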

How the results depend on the processing

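The count of 983 bins outside genes depended most on the strand and the read filter. It was 7685 with no filter on reads, 347 with more than 100 IP reads, 1812 with protein-coding genes as the only annotation, 632 outside genes on both strands, 26000 with the strand read as listed, and 542 with single-place bins alone, and 1123 to 1657 when each sample was left out in turn, the highest without SK-Mel-103 replicate 1. The share within 1 kb of a gene end, 15.9%, became 6.95% with protein-coding genes as the only annotation, 19.1% outside genes on both strands, 4.26% with the listed strand, 13.1% with no base of the bin in a gene, 9.87% with ends of protein-coding genes only, and, in alternatives chosen after seeing the data, 13.4% with the centre of the read bases and 21.2% with single-place bins (14.3 to 16.4% without each sample). The 273 loci became 157 with single-place bins. Of 826 members above input, 502 remained with single-place bins, and 315 of 347 were above input with more than 100 reads. Poly(A) signals at 26.4% of loci became 38.5% within 200 nt and 17.9% with AAUAAA only. GREs in 8.79% of loci became 1.1% with no mismatch, 2.2% with 1 mismatch and 4.4% in the middle 20 nt. The log2 difference to 3′ UTR bins, 2.03, stayed above 0 in every alternative run but moved by over 1 SD to 1.13 with reads summed over bins, 1.36 with no filter on reads and 2.27 with single-place bins (1.91 to 2.12 without each sample). Of 49 alternative values, 24 stayed within 1 SD, within the interval of the share or within 1.5 times the count, and 25 did not. The cause was not tested, except that a stricter filter or fewer genes leave fewer or more bins by construction. No paired analysis was possible because no comparison between groups was tested: the log2 ratio already sets each IP sample against its own input, and the cell lines share only replicate number 1. Members near the threshold hold 31 reads, and their counting error limits any comparison between samples.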

Other observations

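Of the 983 members, 30 had the same 3 IP counts as another common bin. For example, a bin past SPANXA2-OT1 on chromosome X and a bin on chromosome 1 each held 156, 38 and 127 IP reads, without an input read in any sample. Of all members, 18 had no input read in any sample, and 88, 64 and 49 had none in the respective sample. For these counts and for the 30 members above, the share over all common bins is not given here. They cannot be read as a trait of the members.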
